A study of Mus musculus with 48 samples.

Results

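Endothelial and mural cell genes were followed across the preoptic area libraries of female mice. The set comprised 33 of the 23284 genes in the table, chosen by name from a list of endothelial, pericyte and smooth muscle markers. Of these, 24 were endothelial genes and 9 were mural genes (6 of pericytes and 3 of smooth muscle). All 33 had counts and passed the filter on low counts in the supernatant fit and in the joint fit of both fractions. In the fit of the immunoprecipitates alone, 32 passed, and Abcc9 did not.

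The 8 groups carried a Cre driven in neurons that make gonadotropin-releasing hormone, GnRH (genotype GnRH CRE x Floxed L10a-GFP), so that those neurons carried ribosomes tagged with green fluorescent protein. The tagged ribosomes gave the immunoprecipitate (IP), and the GnRH-depleted supernatant held the RNA of the remaining tissue. Young mice and diestrous adults were used. Prenatal treatment was vehicle or the androgen dihydrotestosterone (DHT). This gave 8 groups of 6 libraries, except adult vehicle with 5 in each fraction. Young mice with the Floxed L10a-GFP allele and no Cre gave 1 further library of each fraction. Cre was driven in GnRH neurons, so vessel cells were not meant to carry the tag. Whether each library came from a single animal is not in the labels, and the tests reflect only how far the libraries vary, which may be technical.

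Brain capillaries are tubes of endothelial cells sealed by tight junctions, which together with selective transporters form the blood-brain barrier. Pericytes wrap the capillaries within the shared basement membrane, whereas contractile smooth muscle cells surround arterioles and arteries. Endothelial cells hold pericytes on the vessel wall by secreting platelet-derived growth factor B, which pericytes detect through Pdgfrb. Several members are also made outside vessels in the brain: Slc2a1 and Slco1c1, for example, are known in astrocytes.

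Library totals ran from 28136004 to 55479453 counts, with a median of 39654296. The capture was checked with Gnrh1, the transcript of the hormone itself. It averaged 27.9 to 42.0 CPM (the count divided by the library total and scaled to a common size) in the supernatant groups and 3314 to 8109 CPM in the IP groups with Cre. Vessel transcripts were scarce beside it. Averaged over the supernatant libraries with Cre, the 33 members ran from 0.427 to 31.7 CPM. In bulk tissue, fewer cells of a type and less RNA per cell cannot be told apart.

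Replicate 4 of adult vehicle and replicate 4 of adult DHT stood apart from the other adults in both fractions. In the supernatant, Acta2, the actin of smooth muscle, was at 75.5 and 70.5 CPM there, and the other 9 adult libraries held 1.48 to 5.75 CPM. The summed level of 12 perivascular fibroblast genes was 104 CPM in the first and 324 CPM in the second, against 31.0 to 66.2 CPM in the other adults. For each comparison that rests on adult libraries, the members called without both are therefore also given. That alternative was chosen after seeing the data. Some young supernatants reached similar levels and were kept. Young DHT replicates 3 and 4 held 66.7 and 56.4 CPM of Acta2, with fibroblast sums of 236 and 211 CPM. Young vehicle replicates 1 and 3 held 42.5 and 43.5 CPM of Acta2. The omission thus touches adults only, and for members high in the replicates 4 it lowers the adult level alone.

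The upstream sequences of 3 members whose supernatant levels differed with age are shown, as these genes stand for a pericyte, a junction and a receptor gene. Each run is the 250 bases before the RefSeq gene start in build GRCm38.p6, 5′ to 3′ on the gene's own strand. Each window lies wholly before the annotated start of its own gene. Overlap with exons of other genes is not given here. Capitals mark AGGAAG, an ETS factor motif, and ACAAT, a SOX factor motif, read on either strand. The windows are chr1:169655251-169655500 (Rgs5, plus strand), chr16:18776597-18776846 (Cldn5, plus strand) and chr2:32646345-32646594 (Eng, plus strand).
Rgs5: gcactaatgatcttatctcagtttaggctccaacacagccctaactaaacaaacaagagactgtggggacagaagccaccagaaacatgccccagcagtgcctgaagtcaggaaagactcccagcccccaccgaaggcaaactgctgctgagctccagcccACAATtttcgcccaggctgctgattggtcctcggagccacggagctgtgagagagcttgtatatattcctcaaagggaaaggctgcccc
Cldn5: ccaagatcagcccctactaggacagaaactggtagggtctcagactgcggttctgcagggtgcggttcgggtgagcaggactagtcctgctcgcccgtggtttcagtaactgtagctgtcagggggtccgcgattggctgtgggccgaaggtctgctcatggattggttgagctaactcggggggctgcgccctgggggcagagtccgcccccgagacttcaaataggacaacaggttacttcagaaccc
Eng: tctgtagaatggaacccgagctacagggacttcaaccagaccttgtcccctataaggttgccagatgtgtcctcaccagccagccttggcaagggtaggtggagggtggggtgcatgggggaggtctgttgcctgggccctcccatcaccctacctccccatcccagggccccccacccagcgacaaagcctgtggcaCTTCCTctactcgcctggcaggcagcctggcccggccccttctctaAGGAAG

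The Rgs5 window held 1 ACAAT match, Eng held 2 AGGAAG matches, 1 on each strand, and Cldn5 held neither. RefSeq promoter windows matched 21 of the 33 members, with 24 windows in all. AGGAAG was found in 13 of these 24 windows and in 29.5% of all 32851 mouse windows of the same length. ACAAT was found in 6 of the 24 and in 27.7% of all windows. The other ETS motif searched, CCGGAA, was in 1 of the 24 (Kdr) and in 12% of all windows. The CArG box, the site of serum response factor, was in 1 of the 24 (Myl9) and in 1.47% of all windows. Both strands were read, and no 2 different motifs overlapped in the printed runs.

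The comparison of adult with young supernatant asked how vessel transcripts of the preoptic tissue differed with age. In vehicle mice, 11 of the 33 members were lower in adults and none was higher (edgeR quasi-likelihood test, adjusted p below 0.05). Over all 16286 genes tested, 20.3% were called, 10.2% being lower and 10.1% higher in adults. The members' median log2 fold change was -0.54, and that of all genes was 0.01. In DHT mice, 7 members were lower in adults and none was higher, where 19.9% of all genes were called, 10.5% lower and 9.47% higher. The median there was -0.65 against 0.01 for all genes. The vehicle and DHT comparisons share no library, though they share the fit's estimate of spread.

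Cldn5, Cd34, Ly6c1, Sox18, Rgs5 and Higd1b were called in both treatments, which is 54.5% of the vehicle calls and 85.7% of the DHT calls. Esam, Emcn, Eng, Vwf and Foxq1 were called in vehicle alone and Sox17 in DHT alone. For no member was a difference between the treatments' age differences called when tested directly (0 called of 33, 2 at an unadjusted p below 0.05, 0 by DESeq2 and 0 by limma-voom). For Rgs5 that difference between the log2 fold changes was 0.20 ± 0.25 (SE).

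**Figure D1:**
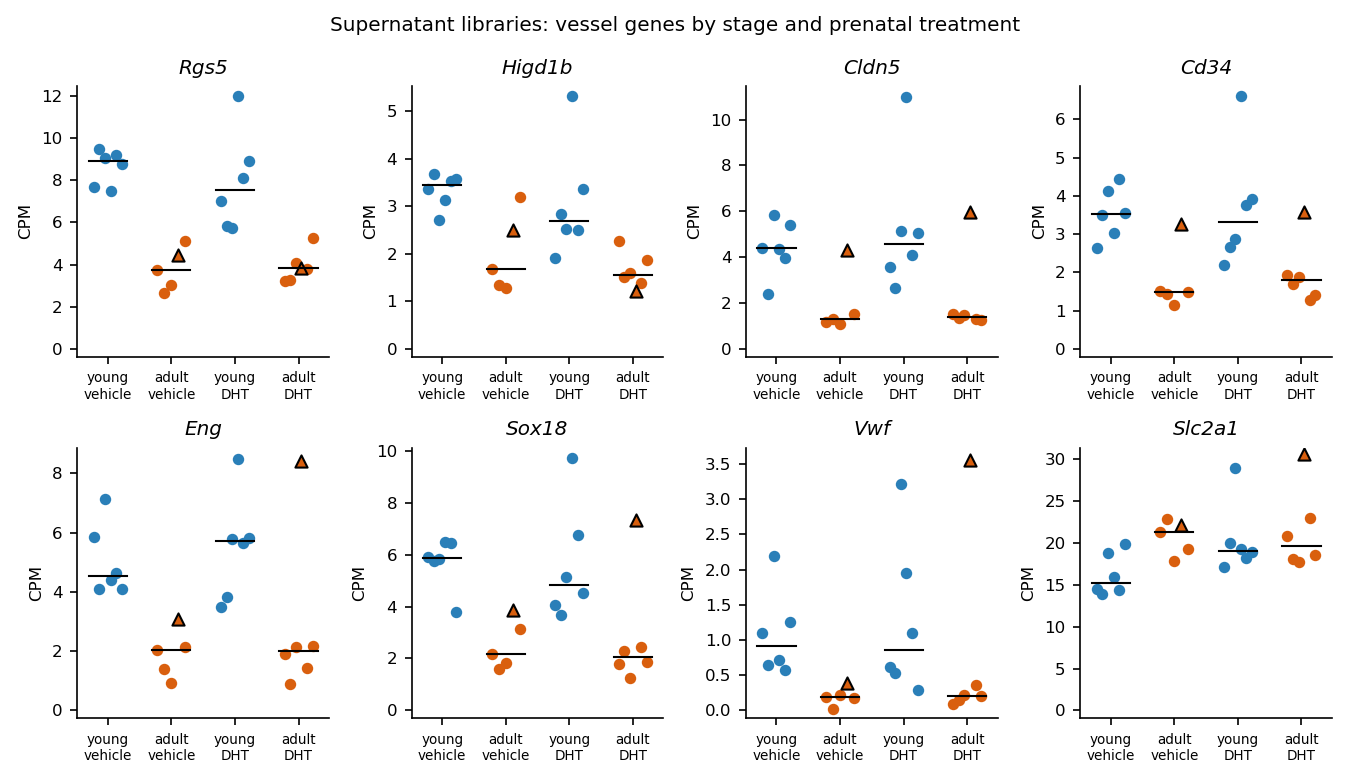
Level of 8 members in each supernatant library, in CPM, by stage and prenatal treatment. Each point is 1 library (6 per group, 5 for adult vehicle), the line is the group median, and triangles are replicate 4 of each adult group. Rgs5 sits between 2.65 and 5.27 CPM in adults and between 5.75 and 11.99 CPM in young mice, without overlap.

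Among pericyte genes, Rgs5 differed most clearly. It encodes a regulator of G protein signalling that is abundant in brain pericytes, and lies on chromosome 1 from 169655501 to 169695813. In young vehicle libraries it ran from 7.48 CPM through a median of 8.92 to 9.49 CPM. Adult vehicle libraries held 3.75, 2.65, 3.01, 4.48 and 5.14 CPM. Every adult lay below every young library. The log2 fold change was -1.21 ± 0.18 (SE), with an edgeR adjusted p of 4.69e-05. In DHT mice Rgs5 ran from 5.75 through 7.55 to 11.99 CPM in young libraries and from 3.21 through 3.82 to 5.27 CPM in adults, again with no overlap. The difference there was -1.01 ± 0.17, with an edgeR adjusted p of 0.000204. Replicate 4 of the adult groups held 4.48 and 3.83 CPM of Rgs5, within the range of the other adults. Omitting the replicates 4 gave Rgs5 -1.28 in vehicle and -1.01 in DHT mice (edgeR adjusted p 0.000162 and 0.000857).

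Rgs5 was the only member whose groups did not overlap in both treatments. In vehicle mice Emcn, Eng, Vwf and Rgs5 lay wholly below the young libraries in adults, 4 members of 33, whereas 4.49% of all genes with counts did. In DHT mice that held for Rgs5 alone, 1 of 33, and for 3.77% of all genes. Without the last 10 sample numbers, which are all young libraries, Rgs5 was still lower in both treatments (log2 fold change -1.17 and -0.68, edgeR adjusted p 0.000104 and 0.0336).

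Higd1b, a small mitochondrial protein gene used as a pericyte marker, was also lower in both. In vehicle mice it ran from 2.71 through 3.45 to 3.68 CPM in young libraries, and adults held 1.68, 1.34, 1.28, 2.51 and 3.21 CPM. Adult replicate 5 lay within the young range, so the groups overlapped, and the log2 fold change was -0.76 ± 0.24 (edgeR adjusted p 0.0282). In DHT mice it was -0.89 ± 0.23 (edgeR adjusted p 0.00951). Higd1b had -0.86 in vehicle and -0.82 in DHT mice without the replicates 4 (edgeR adjusted p 0.0240 and 0.0244). The vehicle call was lost when any 1 of adult vehicle replicates 1, 2 and 3 was left out (edgeR adjusted p 0.0689 to 0.093).

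The other pericyte genes were not called in either treatment. Pdgfrb, the receptor for platelet-derived growth factor B, changed by -0.11 ± 0.31 and 0.05 ± 0.29 on the log2 scale in vehicle and DHT mice (edgeR adjusted p 0.855 and 0.923). Notch3, the Notch receptor of mural cells, had -0.02 ± 0.15 and -0.15 ± 0.15. Vtn, the matrix protein vitronectin, had -0.15 ± 0.59 and 0.02 ± 0.56. Abcc9, the sulfonylurea receptor subunit of a potassium channel, had 0.13 ± 0.44 and -0.84 ± 0.43. In each treatment 2 of the 6 pericyte members were thus called. Vtn was lower in DHT mice as well without the replicates 4 (-1.19, edgeR adjusted p 0.0160).

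Junction and surface genes of the endothelium held 4 of the 11 vehicle calls. Cldn5, the main claudin of the barrier's tight junctions (chromosome 16, 18776847 to 18778262), ran from 2.39 through 4.38 to 5.84 CPM in young vehicle libraries. Adult vehicle libraries held 1.18, 1.29, 1.09, 4.33 and 1.51 CPM. Replicate 4 was the one adult inside the young range. The log2 fold change was -1.26 ± 0.43 (edgeR adjusted p 0.0374) and became -1.82 without the replicates 4 (edgeR adjusted p 0.000224). In DHT mice Cldn5 ran from 2.66 through 4.58 to 11.0 CPM in young libraries and from 1.27 through 1.40 to 5.99 CPM in adults, the highest adult again being replicate 4. The log2 fold change there was -1.28 ± 0.40 (edgeR adjusted p 0.0264). It became -1.91 without the replicates 4 (edgeR adjusted p 6.65e-05). The vehicle call of Cldn5 was lost when any 1 of young vehicle replicates 1, 3, 4 and 6 or adult vehicle replicates 1, 2, 3 and 5 was left out (edgeR adjusted p 0.0528 to 0.104). Its DHT call was lost when any 1 of young DHT replicate 4 or adult DHT replicates 1, 2, 3, 5 and 6 was left out (edgeR adjusted p 0.0506 to 0.102).

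Cd34, a sialomucin of the luminal surface, ran from 2.63 through 3.54 to 4.45 CPM in young vehicle libraries. Adult vehicle libraries held 1.52, 1.43, 1.16, 3.28 and 1.5 CPM, replicate 4 alone reaching the young range. The log2 fold change was -1.03 ± 0.29 (edgeR adjusted p 0.0125), and -0.88 ± 0.27 in DHT mice (edgeR adjusted p 0.0233). Cd34 had -1.37 in vehicle and -1.14 in DHT mice without the replicates 4 (edgeR adjusted p 0.000548 and 0.00158). The DHT call was lost when any 1 of young DHT replicate 4 or adult DHT replicates 2 and 5 was left out (edgeR adjusted p 0.0532 to 0.0917). Cd34 and Eng share 148 and 61 exon bases with Gm16897 and Fpgs on the opposite strand.

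Esam, an adhesion molecule of endothelial junctions, was lower in adult vehicle libraries at 2.35, 2.46, 2.44, 3.52 and 1.80 CPM, against 3.30 through 4.21 to 4.93 CPM in the young. Only replicate 4 reached the young range. The log2 fold change was -0.76 ± 0.25 (edgeR adjusted p 0.0323). Esam had -0.92 in vehicle and -0.91 in DHT mice without the replicates 4 (edgeR adjusted p 0.00645 and 0.00443). With all libraries the vehicle call was lost when any 1 of young vehicle replicates 3 and 5 or adult vehicle replicates 1, 2, 3 and 5 was left out (edgeR adjusted p 0.0589 to 0.0913). Emcn, the sialomucin endomucin of capillaries and veins, held 0.351, 0.358, 0.222, 0.287 and 0.144 CPM in adult vehicle libraries. The young ran from 0.358 through 0.661 to 1.35 CPM, so the highest adult lay only just below the lowest young library. Its log2 fold change was -1.55 ± 0.36 (edgeR adjusted p 0.00336), whereas DHT mice gave -0.46 ± 0.33 (edgeR adjusted p 0.347). The difference between these was not called (1.09 ± 0.48, edgeR adjusted p 0.875). Pecam1 and Cdh5, adhesion molecules of endothelial contacts, were not called in either treatment. Omitting the replicates 4 gave Emcn -1.58 in vehicle and -0.46 in DHT mice (edgeR adjusted p 0.00831 and 0.402). Pecam1 and Cdh5 were then lower in DHT mice (-1.10 and -2.54, edgeR adjusted p 0.0319 and 0.0243).

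Among endothelial receptors, Eng, the TGF-beta coreceptor endoglin (chromosome 2, 32646595 to 32682669), was called in vehicle mice. Young libraries ran from 4.09 through 4.52 to 7.15 CPM and adults held 2.03, 1.41, 0.913, 3.09 and 2.13 CPM, with no overlap. Eng thus changed by -1.42 ± 0.40 on the log2 scale (edgeR adjusted p 0.0137). In DHT mice adults ran from 0.878 through 2.02 to 8.42 CPM, and replicate 4 was the 8.42. With it the log2 fold change was -0.96 ± 0.37 (edgeR adjusted p 0.0684), and without both replicates 4 it was -1.68 (edgeR adjusted p 0.000144). Kdr and Flt1, the receptors for vascular endothelial growth factor, had -1.04 ± 0.39 and -0.54 ± 0.48 in vehicle mice (edgeR adjusted p 0.0621 and 0.464). Tek and Tie1, the receptors of the angiopoietin system, and Ptprb, the phosphatase that restrains Tek, were not called in either treatment. Eng had, once both replicates 4 were omitted, -1.66 in vehicle mice (edgeR adjusted p 0.000312). Tek was then lower in both treatments (-1.50 and -1.78, edgeR adjusted p 0.0296 and 0.00665). Kdr was lower in vehicle mice (-1.21, edgeR adjusted p 0.0379) and Ptprb in DHT mice (-1.41, edgeR adjusted p 0.00659).

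Of the 3 endothelial transcription factors, 2 were lower in adults in each treatment. Sox18 (chromosome 2, 181669836 to 181671640) ran from 3.79 through 5.87 to 6.47 CPM in young vehicle libraries, and adults held 2.18, 1.60, 1.83, 3.85 and 3.14 CPM. The lowest young library and adult replicate 4 overlapped. Its log2 fold change was -1.21 ± 0.34 (edgeR adjusted p 0.0133), and -0.99 ± 0.32 in DHT mice (edgeR adjusted p 0.0302). Foxq1, a forkhead factor of brain endothelium, was called in vehicle mice (-1.13 ± 0.35, edgeR adjusted p 0.0245). It shares 3200 exon bases with A530084C06Rik on the opposite strand, and the library kit does not mark strand. Sox17, a SOX factor of arterial endothelium, was called in DHT mice (-1.14 ± 0.38, edgeR adjusted p 0.0347). All 3 were lower in both treatments without the replicates 4. Sox18 then had -1.42 and -1.54 in vehicle and DHT mice (edgeR adjusted p 0.000487 and 0.000131). Foxq1 then had -1.51 and -1.14 in vehicle and DHT mice (edgeR adjusted p 0.00259 and 0.0115). Sox17 then had -1.28 and -1.67 in vehicle and DHT mice (edgeR adjusted p 0.00903 and 0.000871). With all libraries, the vehicle call of Foxq1 was lost when any 1 of young vehicle replicate 5 or adult vehicle replicates 2, 3 and 5 was left out (edgeR adjusted p 0.0513 to 0.0704). In DHT mice the call of Sox18 was lost when any 1 of young DHT replicates 4 and 5 or adult DHT replicates 1, 2, 3, 5 and 6 was left out (edgeR adjusted p 0.0554 to 0.0989). That of Sox17 was lost when any 1 of young DHT replicates 4 and 5 or adult DHT replicates 1, 2, 3, 5 and 6 was left out (edgeR adjusted p 0.0546 to 0.103). Sox17 shares 804 exon bases with Gm37587 on the opposite strand.

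Of the other endothelial markers, Ly6c1, a surface antigen gene with near relatives, was lower in both treatments (-0.99 ± 0.33 and -0.97 ± 0.32, edgeR adjusted p 0.0372 and 0.0321). Its reads could be divided with paralogs such as Ly6a by the counting. Its vehicle call was lost when any 1 of young vehicle replicates 3 and 4 or adult vehicle replicates 1, 2, 3 and 5 was left out (edgeR adjusted p 0.0574 to 0.112). Its DHT call was lost when any 1 of young DHT replicates 3 and 4 or adult DHT replicates 1, 2, 3 and 5 was left out (edgeR adjusted p 0.0521 to 0.0833). Vwf, the clotting glycoprotein von Willebrand factor, ran from 0.574 through 0.910 to 2.19 CPM in young vehicle libraries and held 0.185, 0.0239, 0.222, 0.383 and 0.180 CPM in adults. The groups did not overlap, and the log2 fold change was -2.46 ± 0.82 (edgeR adjusted p 0.0359). The vehicle call of Vwf was lost when any 1 of young vehicle replicate 3 or adult vehicle replicates 1, 2, 3 and 5 was left out (edgeR adjusted p 0.069 to 0.087). In DHT mice the log2 fold change was -0.76 ± 0.70 (edgeR adjusted p 0.470), where adult replicate 4 held 3.56 CPM and the other adults at most 0.362 CPM. With both replicates 4 omitted, Vwf had -2.82 and -2.64 (edgeR adjusted p 0.00341 and 0.00290), lower in both treatments. Ly6a, a related surface antigen gene, was lower in both without them (-1.12 and -1.23, edgeR adjusted p 0.0241 and 0.0115), and Itm2a in DHT mice (-1.06, edgeR adjusted p 0.00125). Ly6c1 then had -1.38 and -1.43 (edgeR adjusted p 0.000420 and 0.000169).

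Of the 5 barrier transporters, 0 were called in either treatment (2 and 0 at an unadjusted p below 0.05), where 20.3% and 19.9% of all genes were. Whether they differed from the other members was not tested. Slc2a1, the glucose transporter GLUT1, ran from 14 through 15.2 to 19.9 CPM in young vehicle libraries. Adults held 21.3, 22.9, 17.8, 22.1 and 19.2 CPM. The adult values overlapped the young range, and the log2 fold change was 0.32 ± 0.14 (edgeR adjusted p 0.120). Abcg2, an efflux pump of the barrier, had 0.05 ± 0.17 in vehicle and 0.01 ± 0.17 in DHT mice. Slco1a4 and Slco1c1, carriers of organic anions and thyroid hormone, had -0.89 ± 0.37 and 0.34 ± 0.19 in vehicle mice (edgeR adjusted p 0.0913 and 0.218). Slco1a4 was lower in both treatments without the replicates 4 (-1.08 and -1.11, edgeR adjusted p 0.0232 and 0.0154). Abcb1a, the pump P-glycoprotein, was near the limit of counting, with a group mean of at most 0.485 CPM in adults, and its reads may be shared with Abcb1b.

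**Figure D2:**
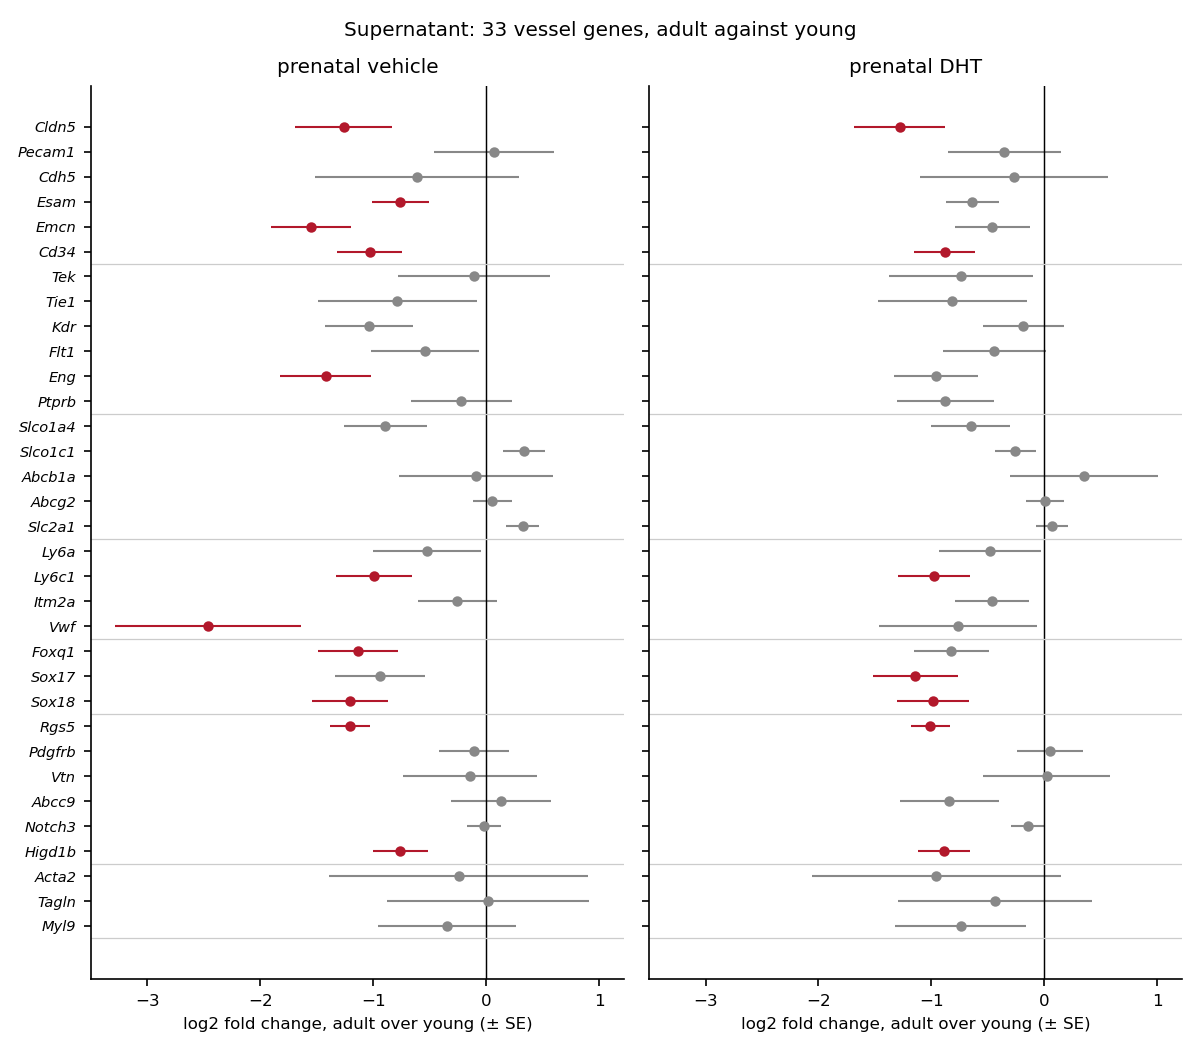
Log2 fold change of adult over young in the supernatant for the 33 members (rows, grouped by role), in vehicle and in DHT mice, with SE bars from edgeR. Red marks an adjusted p below 0.05: 11 members in vehicle and 7 in DHT, all below 0, with the 5 barrier transporters, from Slco1a4 to Slc2a1, not called.

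Smooth muscle genes were dominated by spread between libraries. Acta2 ran from 5.25 through 14.2 to 43.5 CPM in young vehicle libraries, and adults held 4.03, 1.48, 4.79, 75.5 and 5.75 CPM. In DHT mice it ran from 3.13 through 15.2 to 66.7 CPM in the young and from 1.64 through 2.74 to 70.5 CPM in adults. Adult replicate 4 exceeded every young library of its treatment. The log2 fold changes were -0.24 ± 1.15 and -0.96 ± 1.10 (edgeR adjusted p 0.910 and 0.576). Tagln, the actin-binding protein transgelin, and Myl9, a myosin light chain, followed the same libraries and were not called in either treatment. Tagln shares 1241 exon bases with Gm48529 on the opposite strand.

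Without the replicates 4 of adult vehicle and adult DHT, 17 members were lower in vehicle adults and 22 in DHT adults. Young libraries with high smooth muscle and fibroblast levels stayed in. The rise in these counts therefore cannot be told apart from the omission of high adult libraries alone. Over all genes, 10.7% and 10.4% were lower in those fits. Acta2, Tagln and Myl9 then had log2 fold changes of -3.29, -2.02 and -1.62 in DHT mice (edgeR adjusted p 0.0124, 0.0189 and 0.00415). In vehicle mice they had -2.41, -1.56 and -1.25 (edgeR adjusted p 0.0614, 0.0757 and 0.0265). With a covariate for the summed fibroblast genes, also chosen after seeing the data, vehicle mice gave 10 members lower and 2 higher, and DHT mice 2 lower and 1 higher. The members lower under that covariate in both were Rgs5 and Higd1b, and Vtn was higher in both (0.49 and 0.72, edgeR adjusted p 0.0148 and 0.00106). Vtn was thus higher under the covariate in DHT mice but lower there without the replicates 4 (-1.19, edgeR adjusted p 0.0160).

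Single libraries moved these counts by more than 1.5 times. The vehicle count was 7 without young vehicle replicate 3, and 6, 5, 5 and 6 without adult vehicle replicates 1, 2, 3 and 5. The DHT count was 20 without adult DHT replicate 4. It was 3, 2, 3, 2 and 4 without adult DHT replicates 1, 2, 3, 5 and 6, and 2 without young DHT replicate 4. Rgs5 was called in each of these fits in both treatments. With a term for the last 10 sample numbers, or without those libraries, the counts were 7 in vehicle and 1 in DHT mice, the latter being Rgs5. They hold 3 of the 6 young DHT libraries and 2 of the 6 young vehicle libraries, so sample number and stage are partly confounded.

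**Figure D3:**
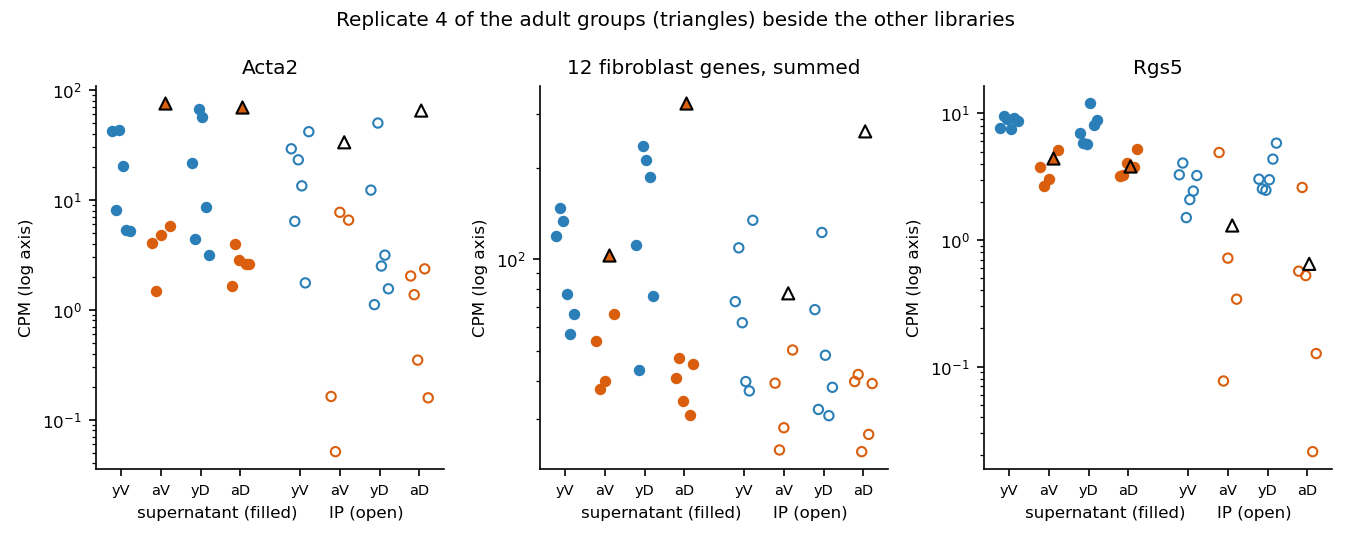
Acta2, the sum of 12 perivascular fibroblast genes, and Rgs5 in each library, in CPM on a log axis, in supernatant (filled) and IP (open). Labels are y young, a adult, V vehicle, D DHT, and triangles are replicate 4 of the adult groups. The triangles are the highest adult values of Acta2 and of the fibroblast sum in each fraction, at 75.5 and 70.5 CPM of Acta2 in the supernatant, but not of Rgs5.

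Other lists moved with age in the same supernatant libraries, and their part in the vessel result was not tested. Of 12 oligodendrocyte genes, 10 were lower in vehicle adults and 9 in DHT adults, with Mobp, a myelin protein gene, at -1.91 ± 0.17 and -1.58 ± 0.15 (edgeR adjusted p 1.78e-08 and 1.22e-07). Their summed level ran from 5127 to 6881 CPM in young and from 2299 to 3635 CPM in adult vehicle libraries. Of 5 red blood cell genes tested, 3 were lower in each treatment. Hbb-b2, a beta globin, was at -2.98 ± 0.28 in vehicle mice (edgeR adjusted p 5.26e-08). The summed red blood cell level ran from 18.6 to 72.1 CPM in young and from 5.68 to 16.4 CPM in adult vehicle libraries. None of the 12 fibroblast genes was called in either treatment (3 and 2 at an unadjusted p below 0.05), and 2 astrocyte genes were higher in vehicle adults. Of the same 12 fibroblast genes, 3 were lower in vehicle adults and 9 in DHT adults without the replicates 4. The oligodendrocyte and red blood cell counts were the same as with them.

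Counts of further vessel genes from other lists were read against the share of all genes called, 10.2% lower and 10.1% higher in vehicle adults and 10.5% lower and 9.47% higher in DHT adults. No test compared a list with that share. Of 37 vascular signalling genes tested, 6 were lower and 3 higher in vehicle adults, and 9 were lower and 2 higher in DHT adults. Pdgfb, the pericyte-retaining growth factor of endothelium, had -1.03 ± 0.16 and -0.94 ± 0.15 (edgeR adjusted p 6.82e-05 and 0.000112). Nrp1, a coreceptor of vascular endothelial growth factor also found on neurons, was higher at 0.44 ± 0.12 and 0.35 ± 0.12 (edgeR adjusted p 0.0121 and 0.0359). Of 26 further endothelial genes, 4 and 9 were lower and none was higher, among them Ets1, an ETS transcription factor (-0.85 ± 0.20 and -0.73 ± 0.19). Of 24 further mural genes, 2 and 3 were lower, led by Ndufa4l2, a pericyte marker (-0.86 ± 0.14 and -0.80 ± 0.13, edgeR adjusted p 9.69e-05 and 0.000140). Of 25 barrier and transport genes, 1 was higher and 1 lower in vehicle adults, and 1 higher and 5 lower in DHT adults. Slc40a1, the iron exporter ferroportin, was lower in both (-1.08 ± 0.22 and -0.96 ± 0.21). Of 13 basement membrane genes, 0 and 1 were lower. With both replicates 4 omitted, 10.7% of all genes were lower in vehicle and 10.4% in DHT adults. The vascular signalling counts were then 7 lower and 1 higher in vehicle and 13 lower and 1 higher in DHT adults. Of the further mural genes, 6 and 14 were lower, and of 25 further endothelial genes tested, 8 and 12. Basement membrane genes gave 2 and 4 lower. Barrier and transport genes gave 2 and 7 lower, with 1 and 0 higher. Pdgfb, Ets1, Ndufa4l2, Slc40a1 and Nrp1 were called in the same directions in both treatments.

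The comparison of IP with supernatant asked how far vessel transcripts were carried into the immunoprecipitate. Over the mean of the 4 conditions, 4 of the 33 members were lower in the IP and none was higher, where 46.1% of all 16660 genes were called, 21.7% lower and 24.4% higher. The median of the members was -0.44 and that of all genes was 0.00 on the log2 scale. The lower members were Rgs5 (-1.59 ± 0.30, edgeR adjusted p 2.11e-05), Abcc9 (-1.55 ± 0.43, 0.00255 by the same adjustment), Foxq1 (-1.52 ± 0.47, 0.00625) and Notch3 (-0.57 ± 0.22, 0.0314). Of these, 3 were among the 9 mural members and 1 among the 24 endothelial members, and no test compared the 2 kinds. DESeq2 added Cdh5, Tie1, Eng and Sox18, which are endothelial.

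Rgs5 in the IP ran from 1.502 through 2.83 to 4.05 CPM in young vehicle libraries, below all young vehicle supernatants. Adult vehicle IP libraries held 4.91, 0.0768, 0.719, 1.30 and 0.340 CPM, so replicate 1 lay within the supernatant range. Adult DHT IP libraries ran from 0.0213 through 0.545 to 2.60 CPM, below all adult DHT supernatants. Abcc9 in adult vehicle IP libraries held 0.0465, 0.0768, 0.0829, 0.0250 and 0.0524 CPM, against 0.270 to 1.15 CPM in the supernatant. Those IP values rest on 11 counts in all. In young vehicle the Abcc9 ratio of mean CPM was 0.943. IP replicates 2 and 5 held 1.20 and 1.83 CPM there and the other IP libraries at most 0.128 CPM, against 0.230 to 1.23 CPM in the supernatant. Abcc9 and Notch3 share 158 and 488 exon bases with 5330439B14Rik and Gm17276 on the opposite strand. Notch3 ran from 1.32 through 3.62 to 4.56 CPM in young vehicle IP libraries and overlapped its supernatant at 3.80 to 5.61 CPM. Foxq1 in adult DHT IP libraries held 1.51, 1.90, 8.09, 7.91, 0.0213 and 0 CPM, against 0.694 to 3.38 CPM in the supernatant. Replicates 3 and 4 thus exceeded every adult DHT supernatant. The Foxq1 ratio of mean CPM was 0.820 in young vehicle, and its log2 fold change was -5.51 in adult vehicle. Its mean over the conditions therefore does not stand for each condition.

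By condition, 1 member was lower in young vehicle (Rgs5, where 21.9% of all genes were called, 10.5% lower and 11.3% higher), none in young DHT (20%, 9.21% lower and 10.7% higher; 0 at an unadjusted p below 0.05, 0 by DESeq2, 5 by limma-voom), 6 in adult vehicle (24%, 11.2% lower and 12.8% higher) and 2 in adult DHT (21.5%, 9.83% lower and 11.6% higher). None was higher in any. The 6 in adult vehicle were Cdh5, Emcn, Tek, Vwf, Foxq1 and Abcc9, and the 2 in adult DHT were Tie1 and Rgs5. By limma-voom, Foxq1 alone of the 6 was called in adult vehicle (adjusted p 0.0356), and Cdh5, Emcn, Tek, Vwf and Abcc9 were not (0.243, 0.114, 0.262, 0.277 and 0.072). In the fit without the replicates 4, adult vehicle gave 8 members (Cldn5, Cdh5, Emcn, Kdr, Flt1, Vwf, Foxq1 and Sox18), where 20.1% of all genes were called, but no longer Tek and Abcc9 (log2 fold changes -3.39 and -2.96, edgeR adjusted p 0.190 and 0.0564). Adult DHT then gave 6 (Tie1, Flt1, Slco1a4, Ly6a, Rgs5 and Notch3), where 18.7% were. Barrier transporters were called in none of the 4 conditions with all libraries, and their median over conditions was 0.16. The young vehicle call of Rgs5 was lost when any 1 of young vehicle IP replicates 1, 3, 4 and 5 or young vehicle supernatant replicates 2, 3, 5 and 6 was left out (edgeR adjusted p 0.0531 to 0.0811). That condition gave 2 members without young vehicle IP replicate 2. Young DHT gave 2 and 1 members without young DHT IP replicates 2 and 6. Adult vehicle gave 3 members without adult vehicle supernatant replicate 4, and adult DHT gave 9 and 4 without adult DHT IP replicates 4 and 6.

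Several of these calls rest on libraries with no counts. Cdh5, the endothelial cadherin, had 0 counts in all 5 adult vehicle IP libraries, and Emcn and Vwf had 1 count each over the 5. The call of Cdh5 in adult vehicle was lost when any 1 of adult vehicle IP replicates 1, 2, 3, 4 and 5 or adult vehicle supernatant replicates 4 and 5 was left out (edgeR adjusted p 0.0517 to 0.0656). The call of Tek in adult vehicle was lost when any 1 of adult vehicle IP replicates 1, 4 and 5 or adult vehicle supernatant replicate 4 was left out (edgeR adjusted p 0.0516 to 0.124). The call of Vwf in adult vehicle was lost when any 1 of adult vehicle IP replicates 1, 2, 3 and 5 or adult vehicle supernatant replicates 1, 3 and 4 was left out (edgeR adjusted p 0.0505 to 0.0798). Tie1 had 1 count over the 6 adult DHT IP libraries. The number of members with no count ran from 0 to 2 in young vehicle IP libraries, 1 to 5 in young DHT, 5 to 14 in adult vehicle and 1 to 12 in adult DHT, and from 0 to 2 over all supernatants. The spread within groups was wider as well. The median SD of the members on the log2 scale was 0.297 to 0.735 in the supernatant groups and 0.877 to 1.45 in the IP groups.

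Without the replicates 4, 13 members (Cldn5, Cdh5, Kdr, Flt1, Eng, Slco1a4, Vwf, Foxq1, Sox18, Rgs5, Vtn, Abcc9 and Notch3) were lower in the IP when all conditions were averaged, where 45.5% of all genes were called, 22.3% lower and 23.2% higher. Leaving out 1 library also moved this count, to 12 without adult DHT IP replicate 4, 9 without adult vehicle IP replicate 4 and 8 without adult vehicle IP replicate 5. Counts were 8 by DESeq2 and 17 by limma-voom. The replicate block described below, which assumes a pairing that the labels do not state, gave 21. Rgs5 and Foxq1 remained lower in every alternative of this mean comparison, Abcc9 in all those in which it was tested (a filter of 1 CPM removed it), and Notch3 in all but the fit without the last 10 sample numbers (-0.54, edgeR adjusted p 0.140). Whether the IP difference differed between adult and young mice was tested directly: 0 of 33 were called (4 at an unadjusted p below 0.05, 1 by DESeq2, 2 by limma-voom), where 4.52% of all genes were, 2.67% lower and 1.85% higher. That number was 4, 3 and 1 without adult DHT IP replicate 4, adult vehicle IP replicate 4 and adult vehicle IP replicate 5, and 6 without the replicates 4 of both fractions (Cldn5, Flt1, Slco1a4, Ly6a, Vwf and Sox18), where 4.22% of all genes were called.

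**Figure D4:**
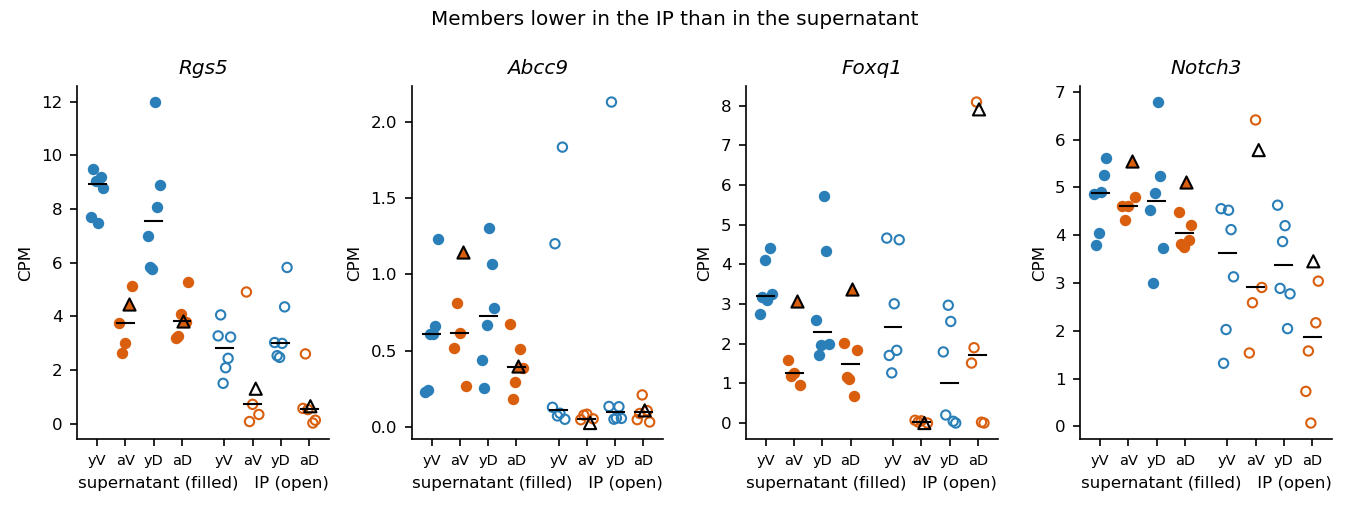
Rgs5, Abcc9, Foxq1 and Notch3 in each library, in CPM, in supernatant (filled) and IP (open), with group medians as lines. Labels are y young, a adult, V vehicle, D DHT, and triangles are replicate 4 of the adult groups. Rgs5 in young vehicle IP libraries lies at 1.502 to 4.05 CPM, below the supernatants at 7.48 to 9.49 CPM.

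The pair of libraries without Cre had no replicate. Of the 25 members with over 3 counts in both, 13 were higher and 12 lower in the IP, with a median log2 ratio of 0.10 (0.08 over all genes). Rgs5 had 72 counts in that IP and 269 in that supernatant, a ratio of 0.307 (95% interval 0.233 to 0.400, counting error only). In young vehicle mice with Cre the ratio of mean CPM was 0.321. Esam went the other way at 3.37 (2.59 to 4.42), and so did Slc2a1 at 2.11 (1.89 to 2.37). Notch3, lower in the IP of the mice with Cre (0.691 in young vehicle), was higher here at 1.87 (1.52 to 2.32). Pdgfrb was likewise at 2.23 (1.85 to 2.71), against 0.5996 with Cre, and Kdr at 1.65 (1.15 to 2.37), against 0.179. That Kdr value with Cre rests on 1 library, as young vehicle IP replicate 2 had 70 counts and the others 0 or 1. Without Cre, Foxq1 and Abcc9 had 2 and 1 counts in the IP and 33 and 39 in the supernatant. Vessel transcripts were thus counted in an IP without tagged ribosomes. Other members had lower ratios here than with Cre. Cldn5, Pecam1 and Itm2a were at 0.603 (0.377 to 0.946), 0.346 (0.185 to 0.615) and 0.554 (0.460 to 0.666), against 1.55, 1.72 and 1.18. The interval of the Rgs5 ratio held the value of the mice with Cre, and those of Notch3, Pdgfrb, Kdr, Cldn5, Pecam1 and Itm2a did not. These intervals leave out the spread between libraries, so they cannot show a difference between the genotypes.

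**Figure D5:**
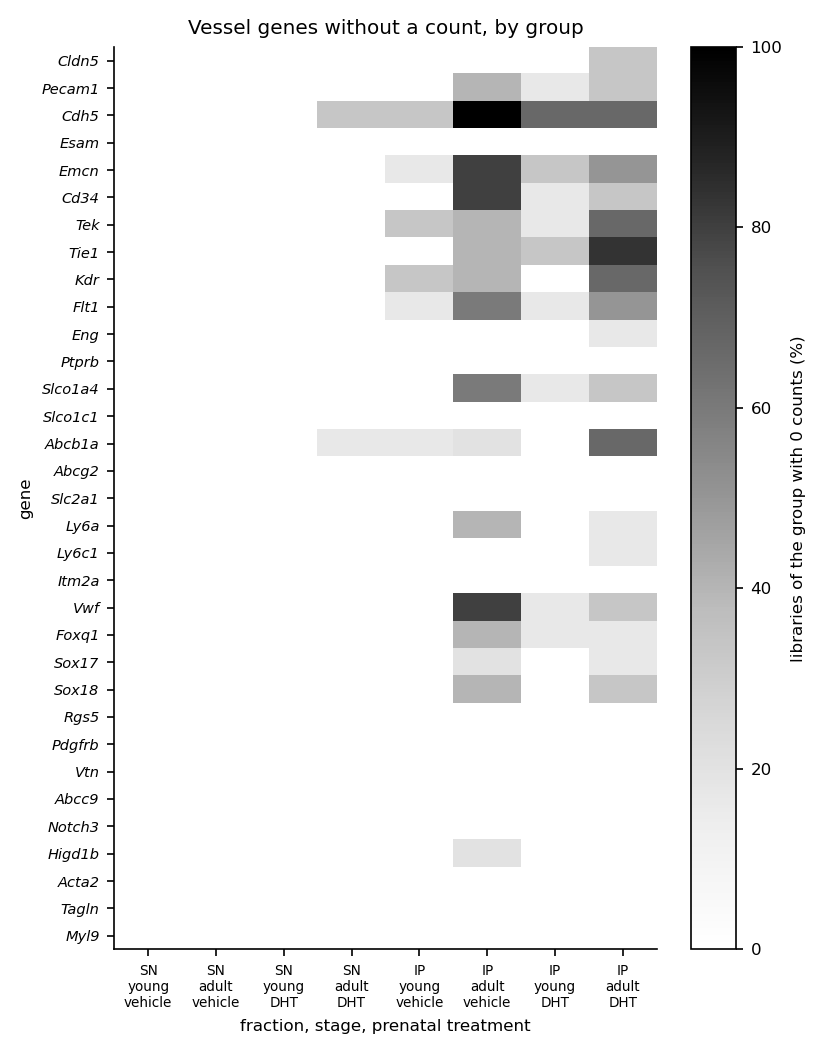
Share of the libraries in each of the 8 groups that had 0 counts of a member, in percent (white 0, black 100), with members as rows. SN is the supernatant. Dark cells lie mostly in the adult IP groups, such as Cdh5 with all 5 adult vehicle IP libraries at 0.

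Adult and young mice were also compared within the IP. In vehicle mice 2 members, Vwf and Foxq1, were lower in adults, where 3.83% of all 15890 genes were called, 1.79% lower and 2.04% higher. Vwf ran from 1.46 through 2.52 to 3.63 CPM in young vehicle IP libraries, and adults held 0, 0, 0, 0.0250 and 0 CPM. Foxq1 ran from 1.26 through 2.42 to 4.66 CPM in the young, and adults held 0.0698, 0.0256, 0.0553, 0 and 0 CPM. Neither overlapped, and the edgeR adjusted p values of Vwf and Foxq1 were 0.0333 and 0.0376. Cldn5 and Esam, which were not called, also lay wholly below the young. That made 4 members, where 2.7% of all genes with counts did so. In 8 of the 11 fits with 1 library left out the number of members called was 0 or 1. These were the fits without young vehicle IP replicates 1, 2, 4 and 6 and adult vehicle IP replicates 1, 2, 3 and 5. Without adult vehicle IP replicate 4 the calls of Vwf and Foxq1 were lost as well (edgeR adjusted p 0.0597 and 0.0764). In DHT mice 0 members were called (3 at an unadjusted p below 0.05, 0 by DESeq2, 4 by limma-voom), where 7.12% of all genes were, 3.32% lower and 3.80% higher. Foxq1 there ran from 0 through 1.71 to 8.09 CPM in adults, above the young median of 0.998 CPM. Slc2a1 was the only member whose DHT groups did not overlap. Its adults lay wholly above the young, as did 1.55% of all genes with counts. The number of members called in DHT mice was 2 without adult DHT IP replicate 4. Without the replicates 4 of both adult groups the counts were 3 and 2. In that fit Cldn5, Vwf and Sox18 were lower in vehicle adults and Slco1a4 and Ly6a in DHT adults, where 2.85% and 4.40% of all genes were called. The p of Vwf was below the threshold there and that of Foxq1 was not (edgeR adjusted p 0.0191 and 0.0818).

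The comparison of prenatal DHT with vehicle asked whether the androgen altered these transcripts. In the supernatant, 0 of 33 members were called in young mice (2 at an unadjusted p below 0.05) and 0 in adults (2), and 0 by DESeq2 and by limma-voom at both stages. Of all genes tested, 0.0% were called at either stage. Rgs5 differed by -0.15 ± 0.17 in young and 0.04 ± 0.18 in adult supernatant on the log2 scale, and Slc2a1 by 0.31 ± 0.14 and 0.05 ± 0.14. The widest member differences were 0.83 for Tek in the young and 1.93 ± 0.82 for Vwf in adults, where replicate 4 held the highest value. With a median SE of 0.365 and 0.397, the unadjusted 95% intervals of a typical member reached 0.715 and 0.778 to either side. Differences within that width could go uncalled for such a member, and the width differs by gene. Without the replicates 4, 0 members were called in adults (0 at an unadjusted p below 0.05), and Vwf, Rgs5 and Slc2a1 had 0.40, 0.11 and -0.04.

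In the IP, 0 members were called in young mice (0 at an unadjusted p below 0.05) and 0 in adults (6), where 0.00629% of all genes, a single gene, were called in adults. By DESeq2, Cdh5 and Foxq1 were higher and Tie1 lower in adult DHT IP libraries, and limma-voom called 0 at both stages. The Cdh5 call rests on 145 counts in adult DHT IP replicate 4, where the other adult IP libraries held 0 or 1. The Tie1 call likewise rests on 237 counts in adult vehicle IP replicate 5, where the others held 0 or 1. Vwf and Foxq1 had the smallest edgeR adjusted p there, 0.312. The median SE on the log2 scale was 1.22 in young and 1.28 in adult IP, so differences of several fold could go uncalled for a typical member there. A difference by treatment between age differences in the IP was not called for any member (0 called, 5 at an unadjusted p below 0.05, 2 by DESeq2, 0 by limma-voom). In adult IP, 0 members were called by edgeR without the replicates 4 (8 at an unadjusted p below 0.05).

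Levels can be compared between genes only per length. The length used was that of all annotated exons of a gene merged, which can exceed the length of a single transcript. The order of genes depends on that choice. Per kilobase of exon in young vehicle supernatant, Myl9 was highest at 28.9 CPM, followed by Acta2 at 9.49, Itm2a at 7.55, Vtn at 5.04 and Slc2a1 at 4.63. Itm2a encodes a membrane protein used as an endothelial marker. Tagln followed at 4.54, Higd1b at 3.94, Sox18 at 3.52, Cldn5 at 3.11 and Rgs5 at 1.90. Vwf, with 16064 merged exon bases, was lowest at 0.0672, below Abcc9 at 0.0712 and Abcb1a at 0.0775. These last values lie close together. Before division by length, Vwf and Abcc9 had means of 1.08 and 0.596 CPM with SDs over libraries of 0.606 and 0.365 CPM. Their order per kilobase is therefore not settled.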

How the data were processed

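Per the labels' protocols, poly(A) RNA was amplified with a SMARTer v4 Ultra Low kit. The table the authors deposited holds an estimated count for each gene, 98.5% of them whole, and all were rounded for testing. The submitters' processing notes list build mm10 with HTSeq 0.6.1, TopHat2 2.0.13 and DESeq2 1.14.1, besides Bowtie2 2.2.1, FastQC 0.11.3, Cuffdiff 2.1.1 and Cufflinks. The counting tool and gene annotation behind the table are not given in the sources used here.

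Groups and replicate numbers came from the labels. Genes were kept by filterByExpr (minimum count 10, total 15), scaled by TMM and tested with the quasi-likelihood F test of edgeR 4.0.16 (R 4.3.3), adjusted by Benjamini-Hochberg over all genes. A joint fit of 46 libraries compared the fractions. Age and treatment within a fraction were tested in separate fits, of the supernatants alone and of the immunoprecipitates alone. The 2 libraries without Cre entered no fit. Gene positions and exon lengths came from GENCODE M21 (GRCm38). Members and lists were chosen with earlier results of these data known. All 33 members could be named, and from each other list the called genes with the smallest adjusted p, at most 2 per direction. DESeq2 1.42.0, limma-voom 3.58.1, other filters, scaling and fits, a replicate block and leaving out libraries were the alternatives. The test was checked on simulated counts.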

Additional observations from a re-analysis of the deposited data

Results flagged for a closer look

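A gap test within each group (Dixon, 95%) was applied to the 15 members described in the supernatant by age and to 4 members in the IP, 76 groups in all. It marked 1 library in 22 of them. The nominal rate of about 1 group in 20 is for independent groups of normally distributed values. Here many genes come from the same libraries and CPM are skewed, so that rate cannot be set against the 22.

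Adult DHT supernatant replicate 4 was high for 11 genes. It held 5.99 CPM of Cldn5, 5.36 of Esam, 3.58 of Cd34, 8.42 of Eng and 3.66 of Ly6c1. It also held 3.56 CPM of Vwf, 5.91 of Sox17, 7.34 of Sox18, 70.5 of Acta2, 34.1 of Tagln and 80.7 of Myl9. Adult vehicle supernatant replicate 4 was high for 6 genes, with 4.33 CPM of Cldn5, 3.28 of Cd34, 2.97 of Ly6c1, 75.5 of Acta2, 34.8 of Tagln and 78.4 of Myl9. Rgs5 and Higd1b were not marked in either library.

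Among young supernatants, DHT replicate 4 was high for Cldn5 at 11.0 CPM, and vehicle replicate 6 was low for Sox18 at 3.79 CPM. In the IP, Rgs5 was high in adult vehicle replicate 1 at 4.91 CPM and in adult DHT replicate 2 at 2.6 CPM, and Abcc9 in young DHT replicate 2 at 2.13 CPM.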

How the results depend on the processing

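No called member reversed its direction under any alternative run, and 673 results for single genes also kept their call, whereas 149 lost it. Numbers of members called changed as follows. For IP against supernatant over the conditions (4), DESeq2 gave 8, limma-voom 17 and the fit without both adult replicates 4 gave 13. For young vehicle (1), limma-voom gave 2, omission of the last 10 sample numbers 0 and the compared groups alone 2. For young DHT (0), limma-voom gave 5 and the compared groups 2. For adult vehicle (6), a filter of 1 CPM gave 2 and the compared groups 2. There limma-voom gave 5, of which Foxq1 alone was among the 6. For adult DHT (2), that filter gave 1, DESeq2 4, limma-voom 1, the compared groups 0 and omission of the replicates 4 gave 6. For the stage difference of these (0), DESeq2 gave 1, limma-voom 2 and omission of the replicates 4 gave 6. For age in vehicle supernatant (11), a sample number term or omission gave 7, and omission of the replicates 4 gave 17. In DHT supernatant (7), limma-voom gave 13, the term or omission 1, the compared groups 4, omission of the replicates 4 gave 22 and the fibroblast covariate 3. For age in vehicle IP (2), DESeq2 gave 4, limma-voom 5, omission of the last sample numbers 0 and the covariate 1. In DHT IP (0), limma-voom gave 4, omission of the replicates 4 gave 2 and the covariate 1. For DHT in adult IP (0), DESeq2 gave 3, and for its difference by age (0) it gave 2. The cause was not tested.

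With 1 library left out, the numbers ran from 4 to 12 over conditions, 3 to 8 in adult vehicle, 2 to 9 in adult DHT, 0 to 2 in each young condition and 0 to 4 for the stage difference. For age they ran from 5 to 12 (vehicle) and 2 to 20 (DHT) in the supernatant and from 0 to 2 in the IP of each.

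The replicate block assumes that an IP and a supernatant with the same number belong together. The labels do not state this, and of 23 such pairs 17 had a correlation of deviations over 0.1 (-0.07 to 0.40), with 18 libraries correlating best with their own number, a hint from the data only. The numbers were therefore not taken to pair the samples. With the block, IP against supernatant gave 21 members lower over conditions, where 35.2% of all genes were lower and 21.2% higher. It gave 11 for adult vehicle, 8 for adult DHT, 2 for young vehicle, 1 for young DHT and 2 for the stage difference. Within a fraction the block was a different model, a term for the replicate number shared by all groups. It pairs no IP with a supernatant, and it ties libraries of different groups by number alone. With that term, age in DHT supernatant gave 11 and in DHT IP 1. Under the pairing block and limma-voom the median of all genes shifted to -0.21 and -0.22 in the IP comparison. Members often had no count in adult IP libraries, whose totals overlapped those of the young.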

Other observations

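Genes of other cell types also differed between IP and supernatant over the 4 conditions. Of 14 astrocyte genes, 9 were lower in the IP and none was higher, where 21.7% of all genes were lower and 24.4% higher, led by Sox9, a glial transcription factor (-0.82 ± 0.11 on the log2 scale, edgeR adjusted p 4.19e-08). Of 15 microglia and macrophage genes, 4 were lower and 1 higher. Among them, Lyve1, a marker of border macrophages and lymphatic vessels, had -5.25 ± 0.72 (edgeR adjusted p 3.70e-07). Of 25 barrier and transport genes, 4 were lower and 6 higher, and of 37 vascular signalling genes 8 were lower and 4 higher. Slc7a5, the large amino acid transporter of the barrier and of other cells, had -1.43 ± 0.14 (edgeR adjusted p 1.09e-11). Plvap, a protein of fenestrated endothelium, was higher at 0.62 ± 0.10 (edgeR adjusted p 1.05e-06), and Efnb2, an arterial ephrin ligand, was lower at -0.99 ± 0.12 (edgeR adjusted p 6.63e-09). Without the replicates 4, 8 astrocyte genes were lower and 1 was higher, and these 5 genes were called in the same directions.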
